A study of Mus musculus with 8 samples.

Results

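The 10 genes described here are the receptors *Notch1*, *Notch2*, *Notch3* and *Notch4*, the ligands *Jag1*, *Dll1* and *Dll4*, and the transcriptional targets *Hes1*, *Hey1* and *Heyl*, out of 32285 genes in the count matrices. They were taken by symbol, as core members of 1 signaling pathway, and all 10 were detected in both diets. Periosteal cells were released with collagenase and dispase from femurs and tibias of C57BL/6J male mice aged 16 weeks, kept either on normal diet chow (ND) or on high-fat diet chow (HFD), and read by droplet 3′ single-cell RNA sequencing, in which each unique molecular identifier (UMI) counts 1 captured transcript. The labels list 4 samples per diet, but the files hold 1 matrix per diet with no link from cell to mouse, so each diet was 1 library. No test between diets was therefore possible, intervals cover counting error only, and a difference between the libraries cannot be told apart from a difference between mice or preparations.

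Notch receptors are single-pass membrane proteins that are activated by a ligand on a neighboring cell. Ligand binding exposes the receptor to ADAM proteases and then to gamma-secretase, which frees an intracellular domain that joins RBPJ and Mastermind proteins on DNA and turns on *Hes* and *Hey* repressor genes. The pathway is known for arterial specification in endothelium, for smooth muscle and pericyte maintenance, for keeping skeletal progenitors undifferentiated, and for fate choices in lymphocytes.

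*Notch3* and *Notch4*, which lie on the same chromosome and proved the most cell-restricted of the receptors, are shown by the 250 bases before their transcription start. The windows came from RefSeq on GRCm38.p6, chr17:32166891-32167140 on the minus strand for *Notch3* and chr17:34564045-34564294 on the plus strand for *Notch4*. Capitals mark the GC box GGGCGG, or its reverse complement, a letter string bound by Sp family factors.
Notch3: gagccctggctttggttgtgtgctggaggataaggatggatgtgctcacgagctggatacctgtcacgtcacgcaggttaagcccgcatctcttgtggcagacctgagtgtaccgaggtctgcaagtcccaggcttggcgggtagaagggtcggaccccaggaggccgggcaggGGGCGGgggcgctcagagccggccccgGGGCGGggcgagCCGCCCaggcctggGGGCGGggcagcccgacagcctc
Notch4: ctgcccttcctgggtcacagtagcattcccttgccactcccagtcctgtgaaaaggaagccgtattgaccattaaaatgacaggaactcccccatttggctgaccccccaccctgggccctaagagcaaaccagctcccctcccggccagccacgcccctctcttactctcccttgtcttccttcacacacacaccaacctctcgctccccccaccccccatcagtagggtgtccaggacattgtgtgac
The *Notch3* window held 4 matches and the *Notch4* window 0. Windows of 300 bases were found for 7 members, all receptors or ligands (8 windows, with 50 bases after the start included). Among 32851 such RefSeq windows 35.7% held the GC box on either strand. No window was available for the targets *Hes1*, *Hey1* and *Heyl*, so the member counts cover receptors and ligands only. The RBPJ core string TGGGAA was in 0 of the 8 windows and in 25.6% of all windows, and the longer GTGGGAA, which contains it, was in 6.38% of all.

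After the filters on genes and mitochondrial UMIs 6029 ND and 6224 HFD cells were kept, with medians of 4610 and 4824 UMIs per cell. Cells were clustered without the Notch genes and 12 classes were named from markers, so each class name is written with "-like". Blood-lineage cells made up most of both libraries, with 86.6% of ND and 81.7% of HFD cells in the 9 blood classes, the largest being the neutrophil-like class at 39.9% and 39.1%. The mesenchymal-like class held 409 ND and 668 HFD cells, the endothelial-like class 117 and 234, and the mural-like class 31 and 59. Mural-like cells were named from markers of pericytes and vascular smooth muscle. All of them held the smooth muscle gene *Myh11*. Among the pericyte genes, *Abcc9* and *Kcnj8* were in 0 and 1 ND cells and in 4 and 2 HFD cells. The other pericyte genes were more common, with *Rgs5* in 10 ND and 27 HFD cells. *Cspg4* had 59 ND and 93 HFD UMIs and *Higd1b* 15 and 77. All 8, 9 and 11 markers of these 3 classes were highest in their own class. Dissociation-response genes (20 immediate early and heat shock genes) were lower in the HFD library in these classes, at 29480 against 22600 of every 1000000 UMIs in mesenchymal-like cells, 38560 against 23210 in endothelial-like cells and 34400 against 27120 in mural-like cells, and their part in the diet differences given here was not tested. In all, 14 barcodes were shared by kept cells of both libraries.

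Of the 10 members, 9 had their highest level in mesenchymal-, endothelial- or mural-like cells, among the 12 named classes, all but *Notch2*. Over all 15932 genes with at least 20 UMIs in the named classes, 41.8% were highest in 1 of these 3. Levels are given as UPM, the UMIs of a gene scaled to a class total of 1000000 UMIs, here with both diets summed and with an exact 95% Poisson interval in parentheses. These orders over classes are a description, and each compares 1 gene between classes.

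**Figure D1:**
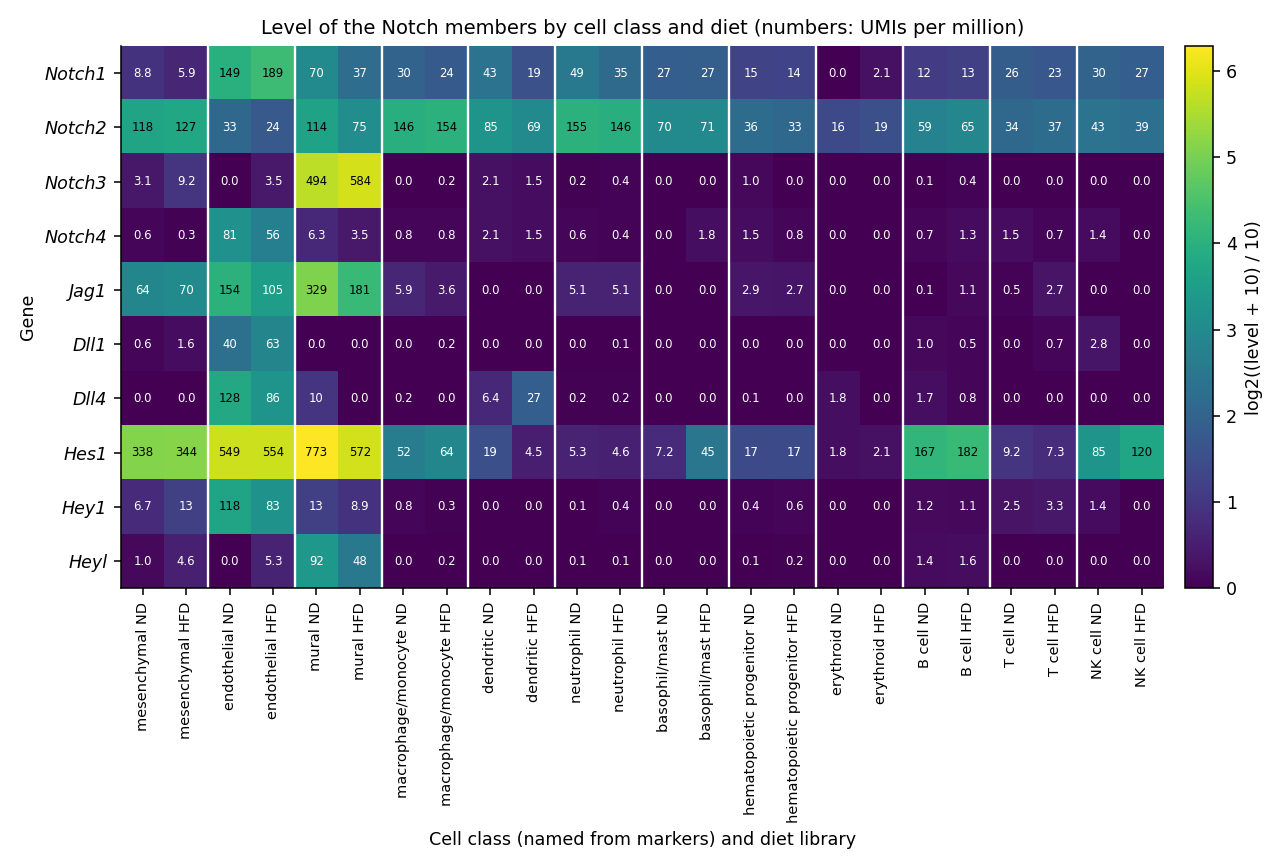
Level of the 10 members (rows) in 12 marker-named cell classes of each diet library (columns), with UPM printed in each cell and color on a log2 scale with 10 UPM added. *Notch3* stands out in mural-like columns (494 ND, 584 HFD), *Notch4*, *Dll1*, *Dll4* and *Hey1* in endothelial-like columns, and *Notch2* is spread over neutrophil-, macrophage/monocyte- and mesenchymal-like columns.

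Among the receptors, *Notch1*, a receptor with broad roles in endothelium and lymphoid cells (Ensembl ENSMUSG00000026923, GRCm38 chr2:26457903-26516663), was highest in endothelial-like cells at 175 UPM (156 to 196). Mural-like cells followed at 48.9 (35.4 to 65.9) and neutrophil-like cells at 41.8 (39.6 to 44.0), with overlapping intervals. Neutrophil-like cells, the most numerous class, held 50.8% of all *Notch1* UMIs in named classes, against 11.1% for endothelial-like cells.

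*Notch2* (chr3:98013527-98150361), the receptor required for marginal zone B cells, had the reverse layout, with neutrophil-like cells at 150.2 UPM and macrophage/monocyte-like cells at 150.1, which could not be separated. Mesenchymal-like cells came next at 123 (117 to 130). Endothelial-like cells, where *Notch1* was highest, were near the bottom for *Notch2*, with 26.8 (19.6 to 35.8).

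*Notch3* (chr17:32120820-32166852), the receptor of arterial smooth muscle and pericytes, was the most concentrated over the named classes. Mural-like cells had 552 UPM (504 to 603) and 82.1% of its UMIs in named classes. An unnamed low-depth cluster, not in that share, had 24.0 (11.5 to 44.2) in ND and 138 (103 to 180.4) in HFD. Mesenchymal-like cells had 6.73 (5.33 to 8.39) and endothelial-like cells 2.33 (0.635 to 5.97). At least 1 *Notch3* UMI was seen in 30 of 31 ND and 56 of 59 HFD mural-like cells, against 3 of 2403 and 5 of 2431 neutrophil-like cells, a class taken to lack the gene, at median depths of 8617 and 8656 against 4128 and 4301 UMIs. With every cell thinned to 1000 UMIs these shares were 41.9% and 45.8% of mural-like cells and 0.0417% and 0% of neutrophil-like cells, so the classes were also apart at equal depth. For the HFD neutrophil-like cells the count of 0 allows a share with a UMI of up to 0.124% at 1000 UMIs per cell only.

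*Notch4* (chr17:34564268-34588503), an endothelial receptor, had 64.7 UPM (53.2 to 77.9) in endothelial-like cells and at most 4.55 (1.24 to 11.7, in mural-like cells) elsewhere. Endothelial-like cells held 60.3% of its UMIs in named classes.

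Among the ligands, *Jag1* (chr2:137081456-137116644) was found in all 3 stromal and vascular classes, in the order mural-like 234 (203 to 269), endothelial-like 122 (106 to 139) and mesenchymal-like 67.9 (63.3 to 72.8), with each step beyond the intervals. The remaining named classes stayed at or below 5.08. The Delta ligands were endothelial instead: *Dll1* (chr17:15367354-15376872) reached 55.4 (44.8 to 67.7) and *Dll4* (chr2:119325784-119335962), the tip cell and arterial ligand, 100.2 (85.8 to 116) in endothelial-like cells, with 74.8% and 76.4% of their UMIs in named classes. *Dll4* had a second site in dendritic-like cells at 18.5 (11.5 to 28.3), a cluster led by the plasmacytoid genes *Siglech*, *Bst2* and *Ccr9*. In mesenchymal-like cells 0 *Dll4* UMIs were counted, which allows up to 0.628 UPM in ND and 0.432 in HFD.

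The targets did not share 1 layout. *Hes1* (chr16:30064384-30067796), a general Notch target that other signals also drive, was high in mural-like (644, 592 to 699), endothelial-like (552, 518 to 589) and mesenchymal-like cells (341, 331 to 352), then in B-like cells (175, 168 to 181), NK-like cells (102, 85.5 to 120) and macrophage/monocyte-like cells (58.3, 54.3 to 62.6). Neutrophil-like cells, which carried *Notch1* and *Notch2*, had 4.93 (4.20 to 5.75). *Hey1* (chr3:8663359-8667256) was endothelial, at 94.4 (80.4 to 110.1), with mesenchymal-like (10.4) and mural-like cells (10.2) inseparable behind it. *Heyl* (chr4:123233556-123249875), a target linked to *Notch3* in smooth muscle, was highest in mural-like cells among the named classes, at 63.7 (48.1 to 82.7). Endothelial-like cells had 3.50 (1.28 to 7.61) and mesenchymal-like cells 3.15 (2.22 to 4.35). Outside the named classes, an unnamed low-depth cluster had 31.2 (16.6 to 53.4) in ND and 91.1 (63.4 to 127) in HFD, so *Heyl* was not confined to mural-like cells.

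Genes whose levels followed a member most closely were ranked by Pearson's r of log2(level + 10) over 24 points, the 12 classes of both libraries, among genes with at least 200 UMIs. The points share library and class sizes, so r is a description. *Notch3* was followed by *Synpo2* (r = 0.997), *Des*, *Npy1r*, *Rgs4* and *Nrip2*, of which *Des* encodes the muscle filament desmin and was itself a mural marker. *Dll4* was followed by *Cdh5* (0.981), *Jag2*, *Kdr*, *Gpihbp1* and *Sema7a*, of which *Cdh5* and *Kdr* were themselves endothelial markers. *Hey1* was followed by *Adgrf5* (0.982), *Efna1*, *Kctd12b*, *Efnb2*, an arterial marker used below, and *Tspan7*. *Jag1* was followed by *Adamts1* (0.988), *Ntf3*, *Sparcl1*, *Epn2* and *Msrb3*. The closest genes were less close for *Hes1* (*Myo1e*, 0.938, then *Ash1l*, *Mprip*, *Ahdc1* and *Socs5*), *Notch2* (*Gabarap*, 0.898, then *Cstb*, *Lgals3*, *Fnip1* and *Mir22hg*) and *Notch1* (*Rapgef2*, 0.864, then *Kctd10*, *Rgl2*, *Cds2* and *Ppp2r5a*). *Notch4*, *Dll1* and *Heyl* had under 200 UMIs and were not ranked.

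The diet comparison asked whether members differed between HFD and ND libraries within a class. Genes were compared from 20 UMIs upward, summed over the libraries, so a gene could enter through 1 library alone. A difference of at least 1.5-fold was counted. In mesenchymal-like cells *Notch3*, *Hey1* and *Heyl* were higher in the HFD library and 0 of the 7 compared members were lower, while *Hes1*, *Notch2* and *Jag1* stood level. Over all 12615 genes compared in this class, 8.09% were at least 1.5-fold higher and 5.91% at least 1.5-fold lower. The median log2 ratio was 0.13 over the members and 0.05 over all genes.

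*Notch3* had 15 UMIs in 10 of 409 ND cells and 64 UMIs in 41 of 668 HFD cells, or 3.14 and 9.21 UPM, a log2 ratio of HFD to ND of 1.52 (95% counting interval 0.73 to 2.47, given in the same way for later ratios). *Heyl* had 5 UMIs in 3 ND cells and 32 UMIs in 22 HFD cells, or 1.05 and 4.60 UPM (log2 ratio 2.02, 0.77 to 3.86). *Hey1* had 32 UMIs in 26 cells and 90 UMIs in 54 cells, or 6.69 and 12.9 UPM (0.94, 0.35 to 1.58). None of the 3 intervals reached 0. However, *Notch3* and *Heyl* had under 20 UMIs in ND and entered the comparison only through the HFD library, where they were higher. Their ratios and intervals are therefore a description and lend no support of their own. With the single cell richest in the gene left out of each library, the levels were 2.31 against 8.36 for *Notch3*, 0.420 against 3.75 for *Heyl* and 6.08 against 12.0 for *Hey1*.

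*Hes1*, with far more UMIs, was level: 1616 UMIs at 338 UPM in ND and 2389 at 344 in HFD (log2 ratio 0.02, -0.07 to 0.12). *Notch2* (0.11, -0.05 to 0.26) and *Jag1* (0.13, -0.08 to 0.34) were also close to 0, and *Notch1* had 42 and 41 UMIs (-0.57, -1.23 to 0.08). The counting intervals of *Hes1*, *Notch2* and *Jag1* lay within 1.5-fold and that of *Notch1* did not, with differences between mice or preparations not covered. Over 12 alternatives in processing, *Notch1* was at least 1.5-fold lower in 6 and *Notch2* at least 1.5-fold higher in 1. *Notch4* (3 and 2 UMIs), *Dll1* (3 and 11) and *Dll4* (0 and 0) had too few UMIs to compare.

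**Figure D2:**
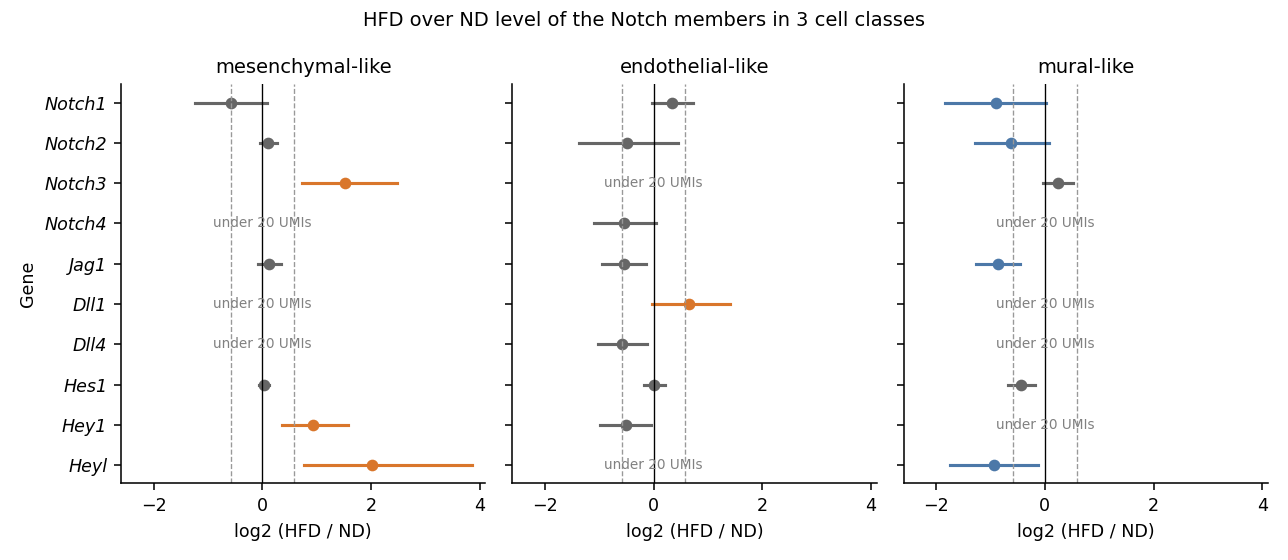
Log2 ratio of HFD over ND level (points) with 95% counting intervals (lines) for the members with at least 20 UMIs in mesenchymal-like, endothelial-like and mural-like cells, with dashed lines at a 1.5-fold difference and members past it in orange (higher) or blue (lower). *Notch3*, *Hey1* and *Heyl* lie to the right in mesenchymal-like cells, and *Notch1*, *Notch2*, *Jag1* and *Heyl* to the left in mural-like cells.

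Most of the mesenchymal *Notch3* and *Heyl* UMIs of the HFD library lay in 1 subcluster, the *Ccl11*/*Col15a1* fibroblast-like cells, with 91 ND and 158 HFD cells. There *Notch3* went from 5 UMIs in 5 cells to 36 UMIs in 20 cells (log2 ratio 1.96, 0.73 to 3.79). *Heyl* went from 1 UMI to 26 UMIs in 18 cells, 1.02 against 15.6 UPM, a ratio with a wide counting interval (3.38, 1.33 to 9.29). *Hey1* went from 5 to 28 UMIs (1.61, 0.33 to 3.45), while *Hes1* (415 and 399 UPM) and *Jag1* (39.8 and 40.2) did not move with them. *Notch3*, *Heyl* and *Hey1* had at most 5 ND UMIs here and reached 20 UMIs only through the HFD library.

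Part of this signal came from the same cells. Of the 22 HFD mesenchymal-like cells with *Heyl*, 8 also had *Notch3* (36.4%), against 5.11% of the HFD cells without *Heyl*, at median depths of 11955 and 9470 UMIs. Only 6 of 54 cells with *Hey1* had *Notch3* (11.1%, against 5.70% of the others). Within the HFD *Ccl11*/*Col15a1* cells the contrast for *Heyl* was smaller. There 7 of 18 cells with *Heyl* had *Notch3* (38.9%, against 9.29% of the others), and 3 of 15 with *Hey1* (20.0%, against 11.9%).

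Mural marker RNA was looked at beside this result. In mesenchymal-like cells the 11 mural markers summed to 269 UPM in ND and 321 in HFD, against 32620 and 37330 in mural-like cells, with *Higd1b* at 0 in both and the other 10 markers detected. Single markers moved more than the sum. In mesenchymal-like cells *Acta2* was 50.4 UPM in ND and 135 in HFD, *Abcc9* had 7 and 43 UMIs, and *Rgs5* had 80 and 15. Of the 41 HFD mesenchymal-like cells with *Notch3*, 0 had the smooth muscle myosin gene *Myh11*, which every mural-like cell had. *Myh11* was itself a marker used to name the mural-like class, and only 2 of all 668 HFD mesenchymal-like cells had it. Its absence from these 41 cells therefore tells little. Among the same 41 cells 0 had the pericyte channel gene *Abcc9*, 4 had *Kcnj8* and 1 had *Rgs5*. Of the 56 HFD mural-like cells with *Notch3*, 3 had *Abcc9*, 1 had *Kcnj8* and 26 had *Rgs5*. Lack of *Abcc9* or *Kcnj8* thus does not set a cell apart from the mural-like cells. Of the 22 HFD mesenchymal-like cells with *Heyl*, 1 had *Myh11* (4.55%, against 0.155% of the others) and 1 had *Abcc9*. The only HFD *Ccl11*/*Col15a1* cell with *Myh11* was a *Heyl* cell. In the *Ccl11*/*Col15a1* cells themselves *Myh11* had 1 UMI in each library and *Tagln* 4 and 2 UMIs, but *Abcc9* went from 6 to 32 and *Kcnj8* from 1 to 18 UMIs. In HFD 12 of these cells held *Abcc9*, none of them with *Notch3*, and 9 held *Kcnj8*, 2 of them with *Notch3*. The part of mural RNA in the *Notch3*, *Heyl* and *Hey1* counts was not tested. Neutrophil marker RNA was lower in HFD mesenchymal-like cells (19270 and 8813 UPM).

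**Figure D3:**
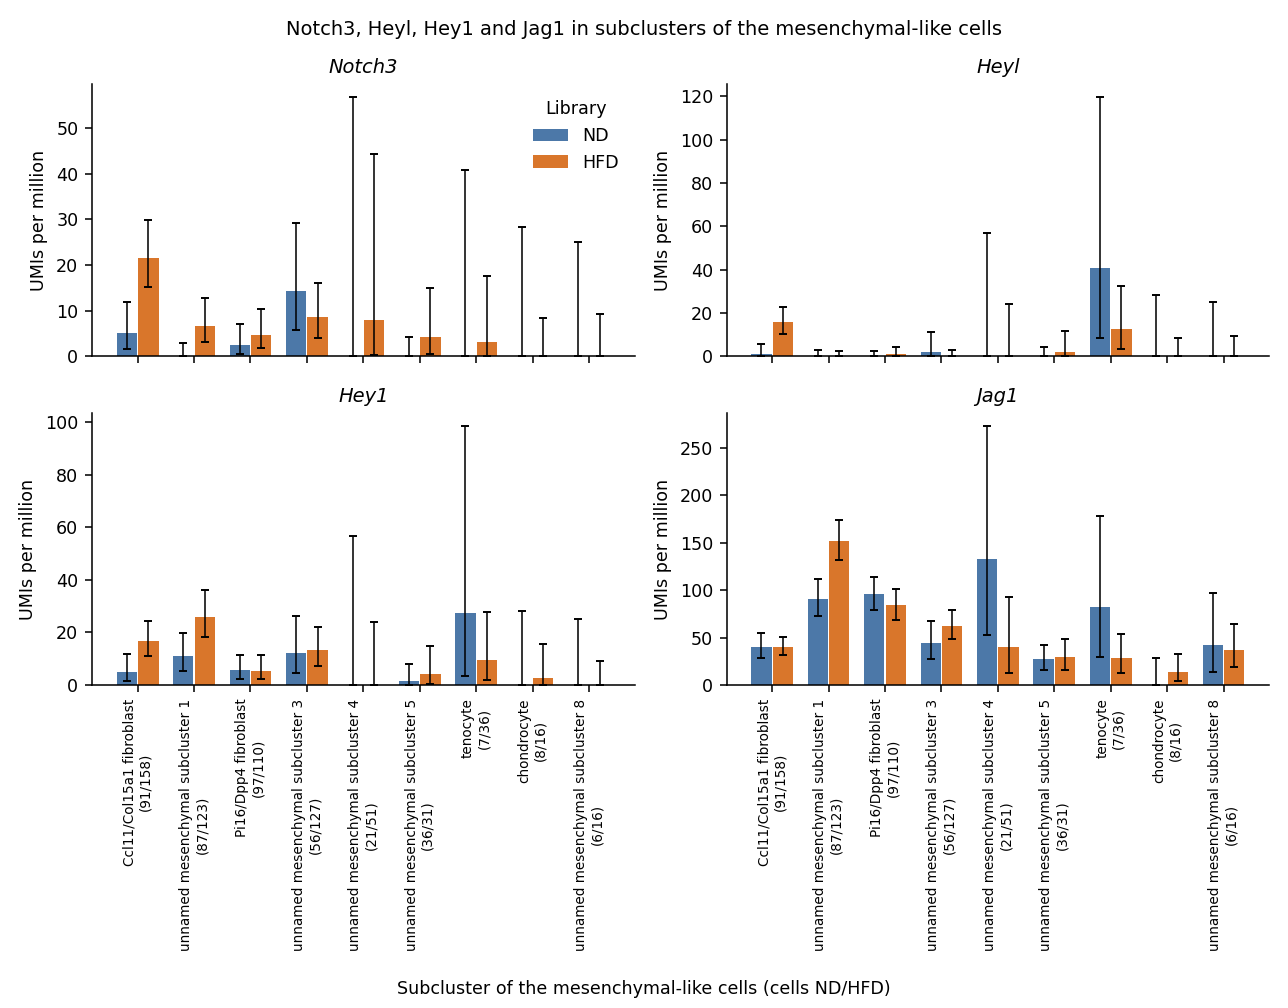
Level of *Notch3*, *Heyl*, *Hey1* and *Jag1* in UPM in 9 subclusters of the mesenchymal-like cells, ND in blue and HFD in orange, with 95% Poisson intervals (for a count of 0, up to 3 counts) and cell numbers as ND/HFD. *Notch3* and *Heyl* rise in the HFD bars of the *Ccl11*/*Col15a1* fibroblast-like cells (21.6 and 15.6), and *Jag1* in subcluster 1 (90.8 ND, 152 HFD).

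The other mesenchymal subclusters showed separate patterns. Subcluster 1, led by *Nppc*, *H19* and *Fbxo2* and unnamed, had the higher *Jag1* in HFD, 91 UMIs at 90.8 against 204 UMIs at 152 UPM (log2 ratio 0.74, 0.38 to 1.11), and also higher *Hey1*, 11 against 35 UMIs (11.0 and 26.0 UPM, with a log2 interval of 0.23 to 2.37). Its *Hes1* was level (-0.06, -0.23 to 0.12). In the *Pi16*/*Dpp4* fibroblast-like cells *Hes1* was 325 UPM in ND and 448 in HFD (0.46, 0.28 to 0.65), under 1.5-fold, with mural markers at 398 and 58.0 UPM. In subcluster 5, led by the neutrophil genes *Ngp* and *S100a8*, it was 167 and 258 (0.62, 0.25 to 1.00), with neutrophil markers at 120900 and 86340 UPM. In subcluster 3, led by *Mmp13*, *Postn* and the osteocalcin gene *Bglap*, *Hes1* was lower in HFD (213 and 137 UPM, -0.64, -1.01 to -0.26), and in tenocyte-like cells lower again (518 and 233, -1.16, -1.73 to -0.55), though the latter held only 7 ND cells. *Hes1* thus stood level over the class while it differed in both directions within it. Between subclusters, *Hes1* was 467 (440 to 496) in subcluster 1 against 161 (142 to 182) in subcluster 3. *Jag1* was also high in subcluster 1, at 126 (112 to 141), but ranked apart from *Hes1* elsewhere: the *Ccl11*/*Col15a1* cells had 405 UPM of *Hes1* and only 40.1 (32.8 to 48.5) of *Jag1*, below the *Pi16*/*Dpp4* cells with 89.6 (78.3 to 102).

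In endothelial-like cells *Dll1* was at least 1.5-fold higher in HFD and 0 of the 8 compared members were lower by that much, while 10.3% of 7809 genes were higher and 9.43% lower. *Dll1* had 23 UMIs in ND and 72 in HFD, 39.8 and 63.2 UPM (log2 ratio 0.64), with an interval that included 0 (-0.03 to 1.41). Other members were lower in HFD by less than 1.5-fold: *Dll4* was 128 and 86.0 UPM (-0.58, -1.03 to -0.12), *Jag1* 154 and 105 (-0.55, -0.96 to -0.14) and *Hey1* 118 and 82.5 (-0.52, -0.98 to -0.04). The intervals of these 3 lay below 0, and those of *Notch4* (81.4 and 56.2, -0.54, -1.10 to 0.04) and *Notch2* (32.9 and 23.7, -0.48, -1.37 to 0.45) did not. *Notch1* was 149 in ND and 189 in HFD (0.34, -0.03 to 0.72). *Hes1* was again level at 549 and 554 (0.01, -0.18 to 0.21). The members' median log2 ratio was -0.50, against 0.00 over all genes of this class. That median includes a small subcluster led by neutrophil genes, described further below. Without it *Jag1* (-0.19), *Hey1* (-0.25), *Notch4* (-0.37) and *Dll4* (-0.46) were less negative and *Notch2* (-0.58) more so. The median without it was not computed. The 11 mural markers summed to 275 UPM in ND (7 detected, with *Abcc9*, *Cspg4*, *Cnn1* and *Higd1b* at 0) and 705 in HFD (11 detected) in endothelial-like cells, and the part of mural RNA in these ratios was not tested.

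Within the endothelium, members were set against 8 arterial markers (*Gja4*, *Gja5*, *Efnb2*, *Sox17*, *Bmx*, *Sema3g*, *Fbln5*, *Stmn2*), a split by the number detected that was added after the values were seen. The 161 cells with 2 or more arterial markers had 140.5 *Hey1* UPM (119 to 165), the 108 cells with 1 marker 29.0 (15.5 to 49.6) and the 82 cells with none 16.9 (4.61 to 43.3). *Jag1* had 178 (154 to 206), 31.3 (17.1 to 52.5) and 46.5 (23.2 to 83.2). *Dll4* had 113 (93.8 to 136), 91.6 (65.7 to 124) and 59.2 (32.3 to 99.3), with overlapping intervals.

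By contrast *Notch1* (186, 152 and 173) and *Notch4* (67.8, 58.1 and 63.4) had overlapping intervals in the 3 groups, and *Hes1* (578, 520 and 503) differed little. The groups had median depths of 5535, 3815 and 2236 UMIs, so the level per UMI, not the share of cells, is compared.

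The share of endothelial-like cells with 2 or more arterial markers was 47.0% in ND and 45.3% in HFD. Within these cells *Jag1* was 251 in ND and 143 in HFD (log2 ratio -0.81, -1.24 to -0.37), *Hey1* 194 and 115 (-0.76, -1.25 to -0.27), and *Dll4* 140.5 and 100.3 (-0.49, -1.04 to 0.08). *Notch4* (92.7 and 55.9, -0.73, with an interval ending just under 0) and *Notch2* (13 and 14 UMIs, -0.96, -2.15 to 0.25) were also lower, while *Dll1* (0.44, -0.33 to 1.33) and *Notch1* (0.21, -0.24 to 0.70) were higher with intervals that included 0.

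Part of the *Jag1* and *Hey1* difference lay in few cells. Endothelial-like subcluster 3, 6 ND and 10 HFD cells led by the neutrophil genes *Retnlg*, *S100a9* and *S100a8*, held 24 of the 89 ND *Jag1* UMIs and 15 of the 68 ND *Hey1* UMIs, the latter all in 1 cell. Without these 16 cells, a comparison added after the values were seen, *Jag1* was 127 in ND and 112 in HFD (-0.19, -0.64 to 0.27), *Hey1* 104 and 87.6 (-0.25, -0.75 to 0.27) and *Dll4* 125.5 and 91.5 (-0.46, -0.93 to 0.03). The intervals of all 3 then included 0, although the *Dll4* ratio itself moved little. *Dll1* was 43.1 and 59.4 (0.44, -0.26 to 1.24) and no longer passed 1.5-fold. Among the arterial-marker cells the same removal left 51 ND and 100 HFD cells, with *Jag1* at 219.9 and 151 (-0.54, -1.02 to -0.05) and *Hey1* at 180.3 and 121 (-0.58, -1.11 to -0.03), both still below 0, and *Notch4* at 86.5 and 58.9 (-0.56, -1.33 to 0.25). Within the *Rgs5*- and *Hist1h2ap*-led subcluster, of 41 ND and 132 HFD cells, mural markers were 154 UPM in ND and 770 in HFD. There *Dll4* was 154 and 68.3 (-1.19, -2.04 to -0.26), while *Hey1* was 59.9 and 102 (0.68, -0.39 to 2.15), and in the *Ccl21a*-led subcluster *Hey1* was 156 and 85.0 (-0.87, -1.59 to -0.17).

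**Figure D4:**
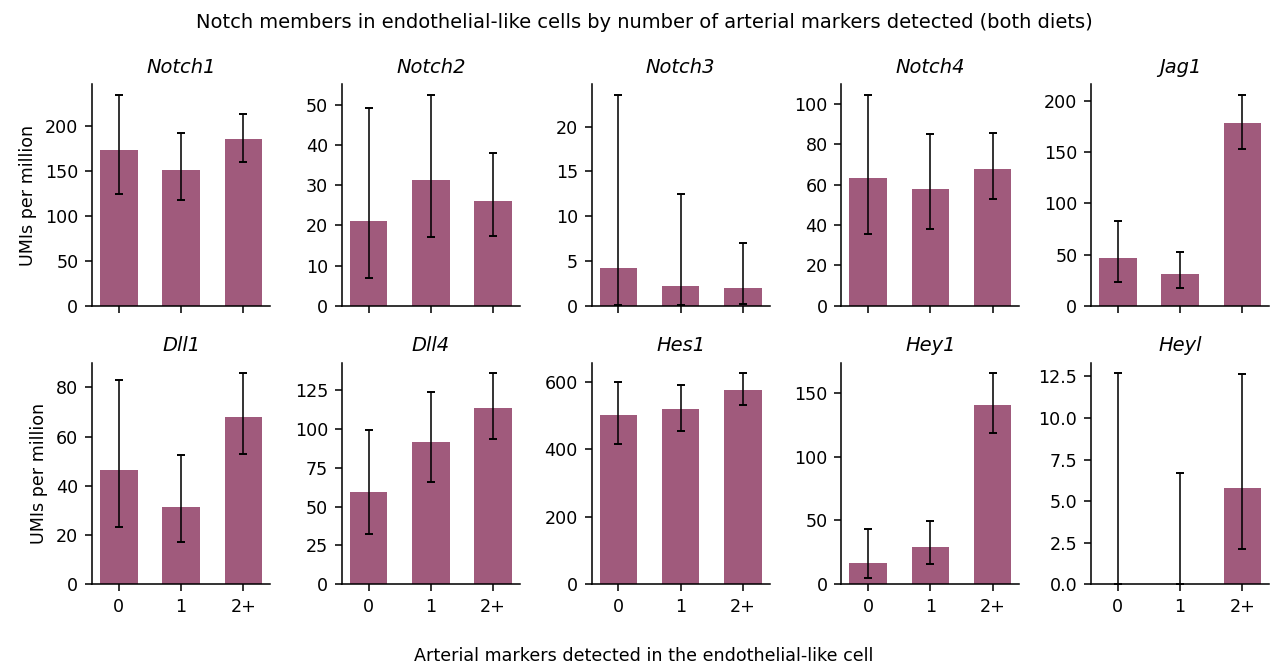
Level of the 10 members in UPM, both diets summed, in endothelial-like cells with 0, 1 or 2 and more of 8 arterial markers detected (82, 108 and 161 cells), with 95% Poisson intervals (for a count of 0, up to 3 counts). *Hey1* and *Jag1* are several-fold higher in the right-hand bars, whereas the bars of *Notch1*, *Notch4* and *Hes1* are of like height.

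By subcluster, *Jag1* was highest in the 94 endothelial-like cells led by *Ccl21a*, *Mmrn1* and *Lyve1*, genes of lymphatic vessels, with 229 UPM (193 to 269). This interval overlapped only that of the 16 cells of subcluster 3 (162, 108.5 to 233). The 94 cells also held the sinusoidal or venous markers *Stab1*, *Nr2f2*, *Vwf*, *Ackr1* and *Selp*. Their *Jag1* UMIs were 60 in ND and 87 in HFD. Over all endothelial-like cells, those with 1 arterial marker held 14 *Jag1* UMIs and those with none 11. Most *Jag1* UMIs of the 94 cells thus came from cells with 2 or more arterial markers. Whether these same cells held the lymphatic genes was not tested, so the level is not assigned to lymphatic cells. The 68 cells led by *Trbc2*, *Ccl5* and *Tnfsf9* had 10.2 (2.10 to 29.8). *Dll4* did not follow that order, with 112 (87.6 to 141) and 119 (82.9 to 166) in the same groups.

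In mural-like cells 4 of the 6 compared members were at least 1.5-fold lower in the HFD library and 0 higher, where 12.3% of 5102 genes were lower and 11.4% higher. *Jag1* had 104 UMIs in 31 ND cells and 102 in 59 HFD cells, 329 and 181 UPM (log2 ratio -0.86, -1.27 to -0.46). *Heyl* had 29 and 27 UMIs, 91.9 and 47.9 UPM (-0.94, -1.75 to -0.13). Both intervals lay below 0, unlike those of *Notch1* (22 and 21 UMIs, -0.90, -1.84 to 0.03) and *Notch2* (36 and 42 UMIs, -0.62, -1.29 to 0.07).

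*Hes1* was lower by less, 773 and 572 UPM (-0.44, -0.68 to -0.19). The receptor *Notch3* was not lower, with 156 UMIs in 30 cells at 494 and 329 UMIs in 56 cells at 584 UPM (0.24, -0.04 to 0.53). Some mural markers also differed: *Rgs5* was 839 in ND and 1184 in HFD, *Abcc9* 0 and 26 UMIs (in 4 HFD cells), and *Kcnj8* 1 and 20 UMIs (in 2 HFD cells), while the smooth muscle genes *Myh11* (3373 and 3621) and *Acta2* (13360 and 16150) were closer. The part of a different mix of mural cells was not tested, and neither mural subcluster could be named. Without the *Camp*-led subcluster (9 ND and 20 HFD cells) *Jag1* (-0.94, -1.45 to -0.44) and *Heyl* (-0.92, -1.85 to -0.02) were still lower in HFD, and *Notch2* (-0.46, -1.30 to 0.41) fell short of 1.5-fold. Neutrophil markers were 28530 UPM in ND and 24000 in HFD in the class but 16040 and 951 in the cells that remained, so the libraries were farther apart in neutrophil RNA without the *Camp*-led cells, and its part in these ratios was not tested. Median log2 ratios were -0.74 for the members and 0.01 for all genes.

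Across the 9 other classes 28 member comparisons could be made, of which 2 were at least 1.5-fold higher and 2 lower in HFD. In dendritic-like cells *Dll4* had 3 UMIs in 3 of 43 ND cells and 18 UMIs in 12 of 59 HFD cells (log2 ratio 1.89, 0.30 to 4.48), where 11.7% of genes were higher, and *Notch1* had 20 and 13 UMIs (-1.11, -2.26 to -0.05), where 9.66% were lower. In basophil/mast-like cells *Hes1* had 4 and 25 UMIs (2.51, 1.12 to 4.64), where 11.1% were higher, but 19 of the 25 came from 1 cell. Dendritic *Dll4* reached the minimum of 20 UMIs mainly, and basophil/mast *Hes1* only, through the HFD library. Neutrophil markers were 4544 UPM in ND and 1007 in HFD in dendritic-like cells and 14020 and 1332 in basophil/mast-like cells, and their part in these ratios was not tested. In macrophage/monocyte-like cells *Jag1* had 39 and 24 UMIs (-0.68, -1.49 to 0.07), where 6.52% were lower.

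*Hes1* divided the macrophage/monocyte-like cells. The *C1qa*-led cluster had 103 UPM (93.3 to 113) and a *Ccl2*-led cluster 158 (139 to 179), while the *Ms4a6c*- and *F13a1*-led cluster had 14.5 (11.9 to 17.4). In the *C1qa*-led cluster it was 74.5 (62.7 to 87.9) in ND and 127 (113 to 143) in HFD, and in the *Ccl2*-led cluster 117 (98.3 to 138) in 113 ND cells and 309 (252 to 375) in 37 HFD cells. The *Ms4a6c*-led cluster had the other direction, 18.3 (14.1 to 23.3) and 11.2 (8.20 to 14.9). *Notch2* varied little among the 3 clusters, between 134 and 161.

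In neutrophil-like cells the receptors differed by cluster. *Notch2* was 30.5 (26.3 to 35.1) in the *Camp*- and *Fcnb*-led cluster, 44.7 and 112 in the clusters led by granule genes such as *Ngp* and *Ltf*, and 326 (313 to 341) and 329 (311 to 348) in the large clusters led by *Cstdc4* and *Retnlg* or by *Il1r2*. A further *Retnlg*-led cluster, of 169 ND and 18 HFD cells, had 217 (188 to 248). *Notch1* was also lowest in the first of these clusters and spanned a smaller range, from 18.5 (15.3 to 22.2) to 60.5 (52.9 to 68.9). Between diets neutrophil *Notch1* was 48.7 in ND and 35.3 in HFD (-0.46, -0.62 to -0.31) and *Notch2* 155 and 146 (-0.09, -0.17 to -0.01). Dissociation-response genes were again lower in HFD, at 9341 and 5014 UPM in neutrophil-like and 21040 and 11900 in macrophage/monocyte-like cells, and their part in these differences was not tested.

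In B-like cells the targets and receptors differed by cluster. In the 112 cells led by *Vpreb1* and *Igll1*, which encode the surrogate light chain of B-cell precursors, *Hes1* was 521 UPM (468 to 579), against 225 (211 to 240.1) in the cluster led by *Vpreb3* and the proliferation gene *Pclaf* and between 111 and 145 in the other 4 clusters. Of the 23 *Heyl* UMIs in B-like cells, 18, or 26.8 UPM (15.9 to 42.4), lay in these 112 cells, 9 in each library. The receptor *Notch2* was low there, at 10.4 (4.19 to 21.5), and in the *Vpreb3*- and *Pclaf*-led cluster, at 11.1 (8.11 to 14.8), and high in the clusters led by MHC class II genes, at 155 (139.5 to 172) and 126 (99.0 to 158). *Dtx1*, an E3 ligase induced by Notch in B cells, had 0 UMIs in the *Vpreb1*- and *Igll1*-led cells (which allows up to 4.47 UPM). It reached up to 42.8 (33.6 to 53.7) in other clusters. *Hes5*, another Notch target, was 29.8 (18.2 to 46.0) in the *Vpreb1*- and *Igll1*-led cells and 18.2 (14.9 to 22.1) in the largest cluster.

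**Figure D5:**
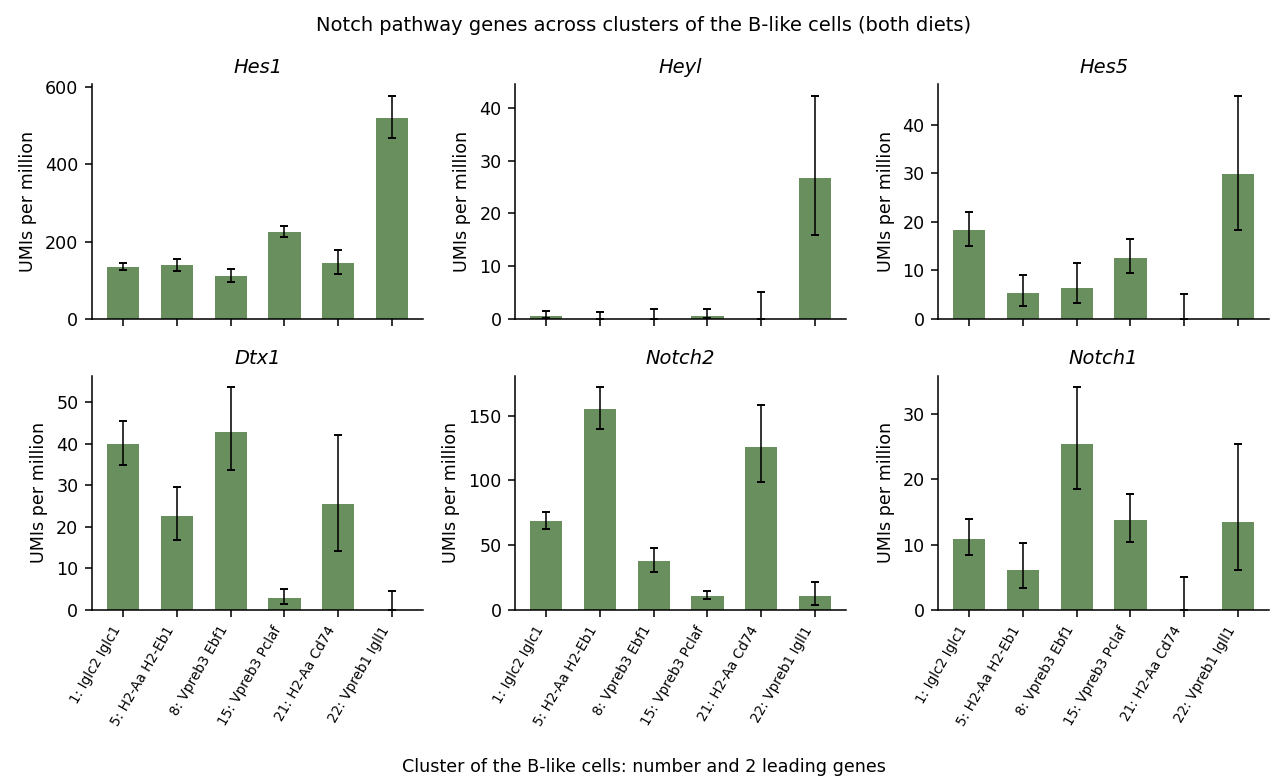
Level of *Hes1*, *Heyl*, *Hes5*, *Dtx1*, *Notch2* and *Notch1* in UPM, both diets summed, in 6 clusters of the B-like cells named by their leading genes, with 95% Poisson intervals (for a count of 0, up to 3 counts). *Hes1* (521) and *Heyl* (26.8) peak in the *Vpreb1*- and *Igll1*-led cells, where *Notch2* is low (10.4) and *Dtx1* was not counted.

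The wider pathway was read from a list of 41 genes, of which 22 were highest in mesenchymal-, endothelial- or mural-like cells. Among the 38 of these 41 with at least 20 UMIs in the named classes, 20 were highest there (52.6%, beside 41.8% of all genes). Of the 22, *Dlk2* (2 UMIs there), *Neurl1a* (1), *Mib2* (13) and *Poglut1* (19) rested on under 20 UMIs in that class. By role the 22 were 3 of 4 further ligands and inhibitors, 4 of 5 glycosyltransferases, 5 of 7 nuclear cofactors, 6 of 11 trafficking genes, 2 of 5 targets and 2 of 9 genes of receptor cleavage. *Jag2*, a ligand, was highest in endothelial-like cells at 95.6 (81.5 to 111), next to *Mfng*, a Fringe glycosyltransferase that modifies receptors (47.2, 37.5 to 58.7), and *Mib1*, the ligase that activates ligands (82.2, 69.2 to 96.9). The feedback inhibitor *Nrarp* (142, 118 to 169) and the arterial target *Hey2* (59.2, 44.2 to 77.6) were highest in mural-like cells. *Rbpj*, the DNA-binding partner of the receptors, was highest in mesenchymal-like cells at 189 (181 to 197). Among the named classes the non-canonical inhibitory ligand *Dlk1* was found there almost alone, with 77 of 83 UMIs. *Hes6* peaked in dendritic-like cells (118, 98.9 to 139.7).

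In mesenchymal-like cells 2 of 31 compared genes were at least 1.5-fold higher in HFD and 2 lower, in endothelial-like cells 3 and 2 of 26, and in mural-like cells 0 and 2 of 14, beside the shares over all genes given for each class. *Dlk1* had the largest ratio among those with at least 50 UMIs, 6 UMIs in 4 ND cells and 71 UMIs in 17 HFD cells, 16 of them in 1 cell (log2 ratio 2.92, 1.83 to 4.52), and reached 50 UMIs only through the HFD library. The coactivator *Maml2* had 42 and 93 UMIs (0.60, 0.07 to 1.17). *Lfng*, a Fringe enzyme, had 47 and 37 (-0.88, -1.55 to -0.23), and the gamma-secretase subunit *Aph1c* 29 and 28 (-0.59, -1.39 to 0.21).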

How the data were processed

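Per the labels there were 4 ND and 4 HFD samples, while the UMI counts deposited by the authors, not normalized, came as a single matrix for each diet, made with Cell Ranger 6.0.1 on mm10 (submitters' processing notes). Libraries held 48558889 (ND) and 49940976 (HFD) UMIs. Barcodes with over 500 and under 8000 genes and under 20% mitochondrial UMIs were kept. Counts were normalized with SCTransform (Seurat 5.3.0, R 4.3.3), with cell cycle scores regressed, and clustered on 30 components at resolution 0.5 without Notch genes, 13 of which were among the 3000 variable genes. Clusters were named from at least 3 markers. Scrublet's automatic threshold marked 32 cells (0.261%), so no cell was removed and the highest 5% of scores (604 cells) served as an alternative. The 2 clusters without a name (249 ND, 177 HFD cells) entered no class comparison. Levels are summed UMIs scaled to 1000000 (UPM) with exact Poisson intervals. Ratios add 0.5 to each count and carry exact conditional 95% intervals, and with 1 library per diet no p-value was computed. A count of 0 is given an upper limit of 3 counts. The ratio script was tested on simulated Poisson counts, the model that the intervals assume. Those counts held no clumping of UMIs in single cells and no spread between mice or preparations. Positions are from GRCm38. Members and gene lists were chosen with earlier results of these data known. Named genes were the 10 members, wider-list genes at least 1.5-fold apart with at least 50 UMIs in a stromal or vascular class, the highest class of wider-list genes and 5 look-alikes per member. Genes outside that rule (other wider-list values, B-like, neutrophil-like and macrophage clusters) were picked after their values were seen. Some genes that met the rule are not reported here.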

Additional observations from a re-analysis of the deposited data

Results flagged for a closer look

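*Heyl* moved in opposite directions in 2 classes: HFD against ND gave a log2 ratio of 2.02 in mesenchymal-like cells (5 and 32 UMIs) and -0.94 in mural-like cells (29 and 27 UMIs), a gap of 2.96. The difference was not tested, since each diet was 1 library.

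Cells left without a class name also carried members above the ND level. In a low-depth cluster with *Igha* and *Ebf1* among its leading genes (213 ND and 159 HFD cells), *Notch3* was 24.0 UPM (11.5 to 44.2) in ND and 138 (103 to 180.4) in HFD. *Heyl* was 31.2 (16.6 to 53.4) and 91.1 (63.4 to 127), and *Hes1* 178 (139.6 to 223) and 276 (226 to 334). In the same cells *Myh11* went from 2 to 32 UMIs and *Acta2* from 10 to 59, while *Rgs5* was 178 and 182, and the part of mural RNA in these counts was not tested.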

How the results depend on the processing

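No paired analysis was possible because the 4 labelled samples of each diet share 1 matrix and no barcode is mapped to a mouse, and leaving out a mouse was impossible for the same reason. Of the 10 members 9 were highest in a mesenchymal-, endothelial- or mural-like class under every reclassification, thinning, doublet and mitochondrial setting run. The mesenchymal differences held their direction and stayed past 1.5-fold in all 12 alternatives (*Notch3* 1.34 to 2.47, *Hey1* 0.79 to 1.23, *Heyl* 1.27 to 2.86, on only 4, 11 and 3 UMIs at 1000 UMIs per cell), as did mural *Heyl* in all 11 (-1.78 to -0.88), while mural *Jag1* passed in 10 of 11 (-1.01 to -0.11). Counts, which take only genes with enough UMIs, moved as follows, so a member past 1.5-fold drops out of a count when thinning or a higher minimum leaves it too few UMIs. Macrophage/monocyte *Jag1* and single wider-list ratios were not rerun, and the *Ccl11*/*Col15a1* ratios were rerun under 1 alternative. In mesenchymal-like cells 1 member was lower, instead of 0, with Notch genes kept in the clustering, dissociation genes left out, classes set from markers in each cell, the mean over cells, a minimum of 1 UMI, or neutrophil-led subclusters left out (a setting added after seeing the data), and 1 was higher, instead of 3, at 1000 UMIs per cell or a minimum of 100 UMIs. In endothelial-like cells 1 was lower, instead of 0, with Notch genes kept, top doublet scores removed, 1000 UMIs per cell, the mean over cells or equal subcluster weights, and 2 with dissociation genes left out or marker-set classes. The number higher, 1, was 0 without top doublet scores, without neutrophil-led subclusters or at 100 UMIs, and 3 at 1 UMI. In mural-like cells the 4 lower members became 0 at 1000 UMIs per cell and 1 at 100 UMIs. For the wider list, the 2 lower in mesenchymal-like cells became 1 without top doublet scores and 0 at 100 UMIs, the 2 higher became 6 at 1000 UMIs per cell and 1 at 100 UMIs, the 3 higher in endothelial-like cells became 1 and 0, the 2 lower there 0 at 100 UMIs, and the 2 lower in mural-like cells 0 in both. Among the member ratios past 1.5-fold in mesenchymal-, endothelial-, mural-, dendritic- and basophil/mast-like cells, direction turned only at 1000 UMIs per cell, where few UMIs were left, for endothelial *Dll1* (-0.082, 12 UMIs), mural *Notch1* (1.88, 3 UMIs) and *Notch2* (2.98, 7 UMIs), and dendritic *Dll4* (-2.04, 1 UMI).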
